A study of Mus musculus with 2 samples.

Results

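Of the 29924 H3K4me3 peaks called in sorted NOS1+ neurons of the mouse small intestine, 1202 lay far from any gene (4.02%, exact 95% interval 3.80 to 4.25%). These far intergenic peaks were chosen by position alone. Each overlapped no RefSeq gene model of any kind (protein-coding, noncoding or pseudogene) and lay 10 kb or more from the nearest end of every model, on the genome build mm10. They held 1.75% of the sequence covered by peaks. The study is a chromatin immunoprecipitation experiment with sequencing (ChIP-seq) on fixed, fragmented chromatin of neurons sorted for NOS1, which makes nitric oxide, prepared with the ThruPLEX DNA-seq kit. It has 1 immunoprecipitated library (antibody against H3K4me3) and 1 input chromatin library, with no second condition and no replicate. The labels give no genotype, strain, age or sorting reporter, and do not say how many mice were pooled. Only the peak list of the immunoprecipitate was analysed here. With 1 library no difference below has a test. The intervals are exact over peaks or genes, and they cover counting only, not variation between animals, sorts or libraries. The depth of the library is unknown, and fewer marked cells and less mark per cell cannot be told apart. Of the cell type markers checked, all 6 neuronal genes and 2 of 4 nitrergic ones (Gal and Npy, but neither Nos1 nor Vip) had a peak within 1 kb of an end, as did 61.7% of all protein-coding genes. So did 5 of 5 smooth muscle, 3 of 4 glial, 3 of 4 epithelial, 2 of 3 fibroblast, 1 of 2 interstitial cell, 1 of 3 endothelial and 0 of 4 leukocyte markers. Whether other cells gave any of the peaks below was not tested.

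H3K4me3, trimethylation of lysine 4 of histone H3, is deposited at start sites of active and poised genes, and weaker amounts are known from some enhancers. A mark far from annotated genes can therefore sit at the start of an unannotated transcript or at a distal element. MicroRNA genes are a familiar case. The hairpin from which a microRNA is cut is what annotations list, while its primary transcript can begin many kilobases earlier. Reads from repeats that the genome assembly holds in few copies are a further known source of narrow, tall signal between genes. Enteric nitrergic neurons relax the gut wall, and their identity depends on regulators such as Ret and Hand2.

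Sequence of the peaks themselves was not used here. Several of the widest far intergenic peaks, and a cluster of 4, had microRNA genes as neighbours. Mature sequences of those genes, except Mir30d (none in the RefSeq data used), and of let-7 and miR-30 relatives beside narrower peaks are shown. They come from RefSeq on GRCm38.p6, with the seed (bases 2 to 8, the part that pairs with targets) in capitals. The first 4 share the let-7 seed and the next 2 the miR-30 seed.
mmu-let-7c-5p (Mirlet7c-2): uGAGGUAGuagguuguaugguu
mmu-let-7b-5p (Mirlet7b): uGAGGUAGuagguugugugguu
mmu-let-7a-5p (Mirlet7a-1): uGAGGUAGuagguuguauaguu
mmu-let-7i-5p (Mirlet7i): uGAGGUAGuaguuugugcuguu
mmu-miR-30a-5p (Mir30a): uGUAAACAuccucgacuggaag
mmu-miR-30c-5p (Mir30c-2): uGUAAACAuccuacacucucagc
mmu-miR-23a-3p (Mir23a): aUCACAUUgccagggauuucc
mmu-miR-181c-5p (Mir181c): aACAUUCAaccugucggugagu
mmu-miR-129-5p (Mir129-1): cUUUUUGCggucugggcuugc

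The far intergenic peaks were narrow and low-scored. Their median width was 303 bp (quartiles 190 and 532.8 bp, range 153 to 5222 bp), and their median score, a value per peak given by the authors and used only within this list, was 11.8 (quartiles 7.18 and 23.9). Intergenic peaks closer to genes than 10 kb had nearly the same medians, 326 bp and 12.9, and peaks inside gene models, away from their ends, had 311 bp and 9.17. Peaks within 1 kb of the end of a gene model stood apart, with 1116 bp and 101. Only 64 far intergenic peaks were at least 1000 bp wide (5.32%, interval 4.12 to 6.75%), against 38.9% of all peaks. Only 14 were among the 25% of all peaks with the highest scores, above 140.8 (1.16%, interval 0.638 to 1.95%). Peaks under 300 bp made up 49.5% (interval 46.6 to 52.4%), against 27.9% of all peaks and 48.1% of those inside gene models. At like scores the widths of far intergenic and gene-end peaks were closer. With all peaks split by score into 10 classes of equal size, the median widths were 179 and 183 bp in class 1 and 344.5 and 386 bp in class 4. In class 7 they were 858 bp (43 far intergenic peaks) and 1270 bp. Classes 8, 9 and 10 held 5, 5 and 8 far intergenic peaks.

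**Figure D1:**
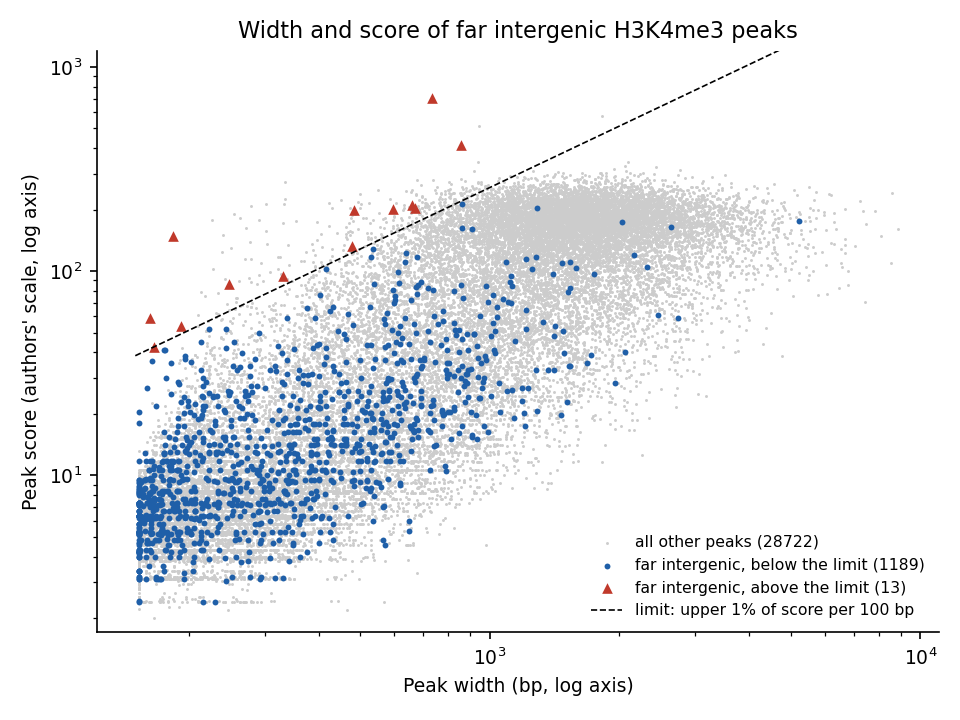
Each point is a peak, with width in bp and the authors' score on log axes: grey for all other peaks, blue and red for the 1202 far intergenic ones. The blue points crowd the lower left corner, while 13 red triangles lie above the dashed line, where the score per 100 bp of width is in the upper 1% of all peaks.

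**Figure D2:**
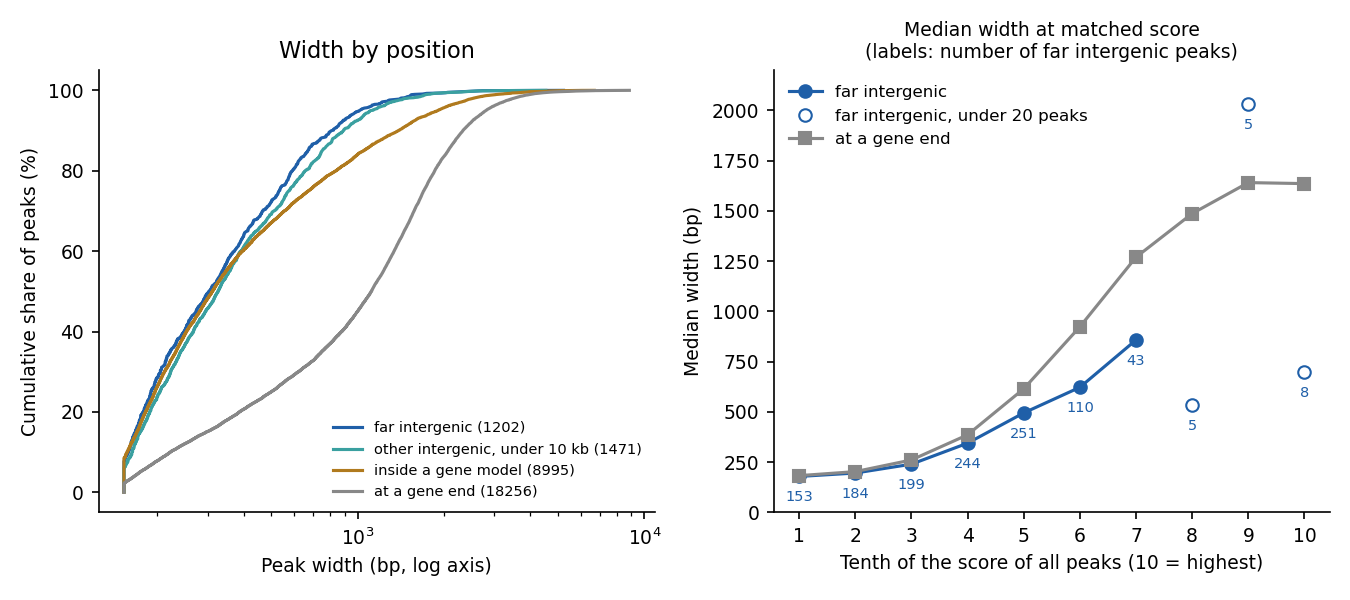
The left panel plots the cumulative share of peaks by width for 4 positions, and the right panel the median width in each of 10 score classes, with the number of far intergenic peaks written beside its point and open circles where it is under 20. The 3 classes away from gene ends overlap at the narrow end. The far intergenic median lies below the gene-end median in every score class except class 9, which holds 5 far intergenic peaks.

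The distance to the nearest gene model of any kind had a median of 20.4 kb (quartiles 14.0 and 36.2 kb), and 44 peaks (3.66%) lay 100 kb or more away. To the nearest protein-coding gene the median was 45.1 kb, and 5 peaks had none within 1000 kb. Wide peaks were found nearer to genes. Of the 583 peaks between 10 and 20 kb away, 37 were at least 1000 bp wide (6.35%, interval 4.51 to 8.64%), as were 26 of the 441 between 20 and 50 kb (5.90%, interval 3.89 to 8.52%). Of the 134 between 50 and 100 kb 1 was (0.746%, interval 0.0189 to 4.09%), and of the 44 farther out 0 (interval up to 8.04%). The interval at 50 to 100 kb lies below that at 10 to 20 kb and overlaps that at 20 to 50 kb, and the interval of the farthest peaks overlaps all the others. The farthest peak, of 169 bp with a score of 5.17, lay 261 kb from Gm27393, at chr11:8147549-8147717. The next, of 366 bp with a score of 11.8, lay at chr2:46055703-46056068, 245 kb from Gm13466 and 938 kb from Zeb2, a transcription factor gene of neural crest and enteric neurons. At the limit itself, the closest included peaks lay 10005, 10014 and 10016 bp from Gm36744, 1110002J07Rik and Sertad2, with widths of 218, 569 and 1401 bp. The closest excluded ones lay 9984, 9979 and 9961 bp from 1700016G22Rik, Gm28659 and Ccdc9, with widths of 153, 153 and 603 bp.

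Sequence 10 kb or more from every model, called far sequence here, made up 984 Mb, or 37.0% of the span of the chromosomes. It includes assembly gaps and repeats that reads cannot be placed in, which the gene table cannot separate. It held 1.22 peaks per Mb, against 17.1 per Mb in the rest. Within far sequence, peaks stayed close to genes: 85.2% lay within 50 kb of a model, against 54.2% of far bases. Among the 19 autosomes the density ran from 0.845 per Mb on chromosome 16 to 2.16 on chromosome 11. Chromosome X had 36 peaks, or 0.428 per Mb, and chromosome Y had 0 in 80.3 Mb. Both also had the lowest density of all peaks, 5.48 per Mb on X and 0.0771 per Mb (7 peaks) on Y.

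**Figure D3:**
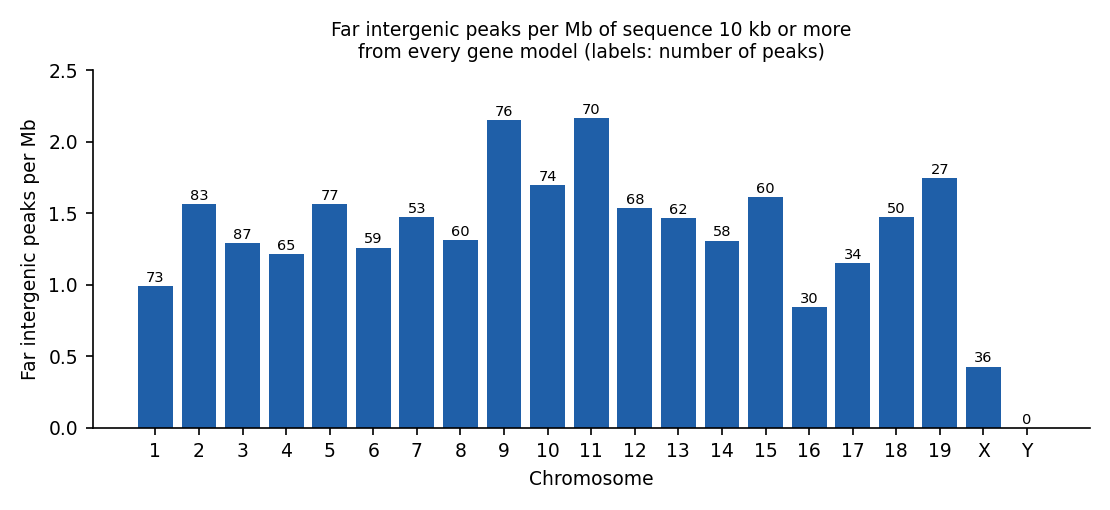
Bars give the far intergenic peaks per Mb of far sequence on each chromosome, with the number of peaks above each bar. Chromosomes 11 (2.16) and 9 (2.15) are highest, and X (0.428) and Y (0) are lowest.

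The widest of all these peaks stood in the largest cluster, 18 peaks within 31.7 kb on chromosome 15, before the let-7b and let-7c-2 genes. The let-7 microRNAs are known for promoting differentiation and restraining proliferation. The peak of 5222 bp at chr15:85669750-85674971 had a score of 176.9 and ranked 64 in width among all 29924 peaks. Around it lay peaks of 1111, 1407, 1511, 1956 and 2056 bp with scores of 88.3, 32.6, 22.8, 28.3 and 40.3, and 12 narrower ones with scores from 4.85 to 55.4. Gaps inside the cluster ran from 58 to 5805 bp. On its lower side the nearest model was D130051D11Rik, a long noncoding RNA gene, at 12.3 kb. On its upper side it was Lncppara, at 19.2 kb, which the gene table also lists as Mirlet7bhg and which holds both hairpins (Mirlet7c-2 at 85706603 to 85706697 and Mirlet7b at 85707319 to 85707403, plus strand). Every peak of the cluster thus lay upstream of the let-7 hairpins, and the Lncppara model itself had no peak within 1 kb. The nearest protein-coding genes were Wnt7b, a Wnt ligand gene, at 71.0 kb on the lower side, and Ppara, a nuclear receptor gene of fatty acid oxidation, beyond the hairpins. Ppara was the nearest protein-coding gene for 13 of the 18 peaks.

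Members of the miR-30 family, broadly expressed microRNAs, also had wide peaks as neighbours. One, 2030 bp wide and scored 174.6, was at chr1:23256142-23258171, 14.1 kb upstream of Mir30a, whose hairpin had a peak of its own within 1 kb. Its other flank was a pseudogene 10.8 kb away, and the nearest protein-coding gene, Ogfrl1, was 108 kb away. Another, 2632 bp wide and scored 164.4, was at chr15:68361434-68364065, 20.1 kb above Mir30d, whose strand was not given, and over 100 kb from Zfat and Khdrbs3. Both peaks were among the 25% of all peaks with the highest scores. Near Mir30c-2, a peak of 553 bp with a lower score of 9.17 lay 29.6 kb downstream. One of 1487 bp (score 39.9) lay at chr6:28980456-28981942, 40.7 kb upstream of Mir129-1. On chromosome 8, a cluster of 4 peaks lay between Mir181c and Mir23a, 13.2 kb from the former and 10.02 kb from the latter. They were 529, 210, 738 and 682 bp wide, with scores of 43.4, 18.9, 80.9 and 85.6. Mir181c is on the minus strand and Mir23a on the plus strand, so the cluster lay upstream of both. The other let-7 genes shown above had narrower single peaks as neighbours, 13.9 kb upstream of Mirlet7a-1 (891 bp, score 41.1) and 21.6 kb downstream of Mirlet7i (542 bp, score 11.8).

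In all, 78 far intergenic peaks lay within 50 kb of a microRNA gene (6.49%, interval 5.16 to 8.03%), against 0.914% of far bases. This limit of 50 kb and the microRNA genes were chosen after their values were seen. The 78 fell into 38 places and 39 microRNA genes were the nearest. Without the 2 largest clusters the share was 4.36% (51 of 1171). Peaks were also more often near other genes: 54.0% lay within 50 kb of a long noncoding RNA gene, against 22.0% of far bases, and 52.2% of a protein-coding gene, against 24.8%. For small nuclear RNA genes the shares were 2.83% and 2.45%, and for pseudogenes 24.0% and 22.3%. Among the 64 wide peaks, 9 were within 50 kb of a microRNA gene (14.1%, interval 6.64 to 25.02%), 5 of them in the let-7 cluster.

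**Figure D4:**
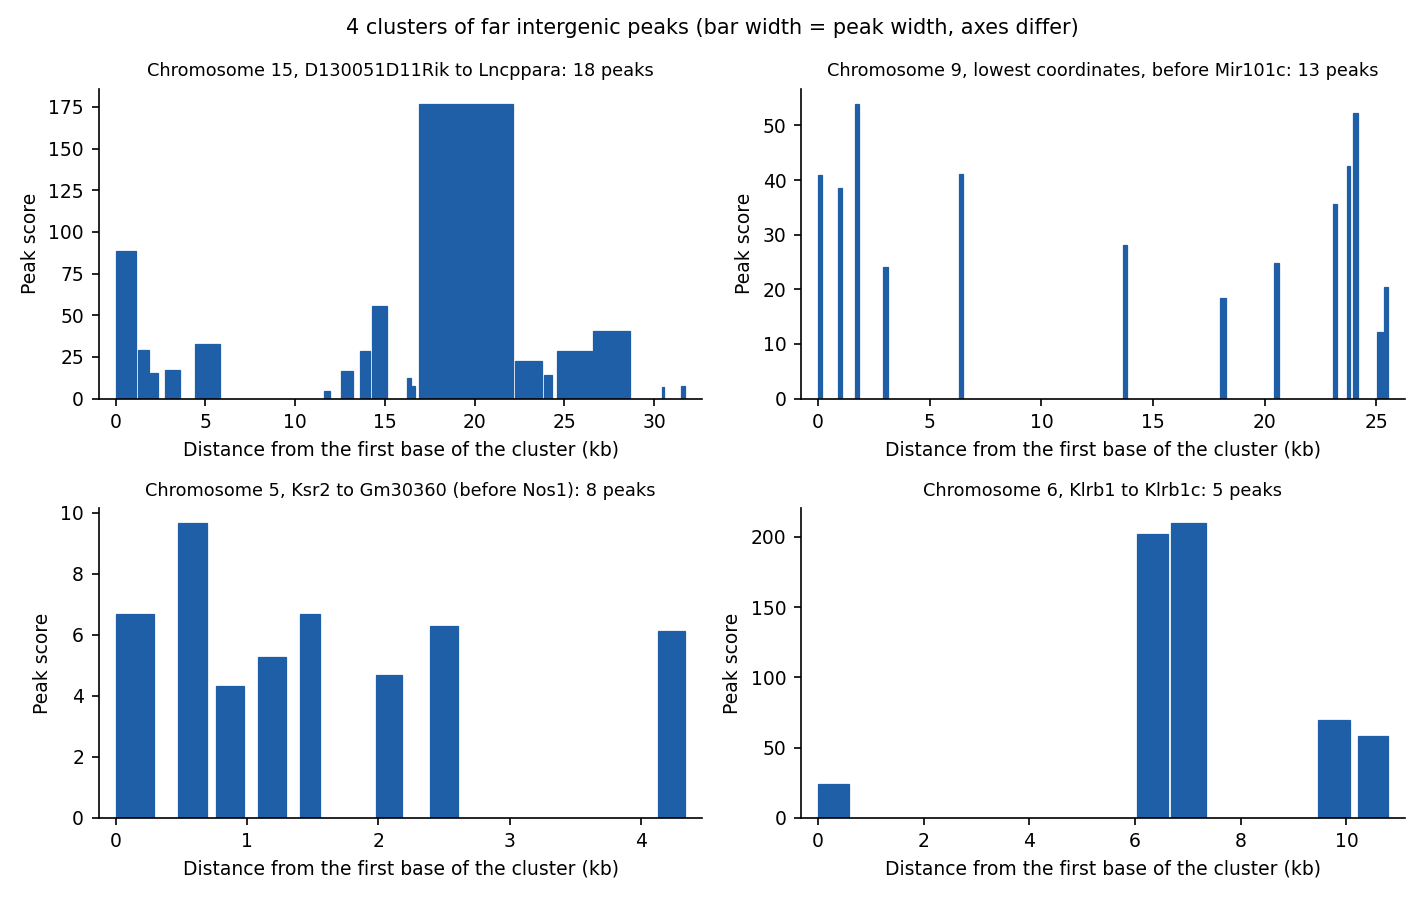
Each bar is a far intergenic peak in 1 of 4 clusters, placed by its distance in kb from the first base of the cluster, with its true width and the authors' score as its height (axes differ between panels). The let-7 cluster on chromosome 15 holds a single peak of 5222 bp among many lower ones, the chromosome 9 cluster only narrow bars, the cluster before Nos1 bars that all score under 10, and the Klrb1c cluster a pair above 200.

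Other wide peaks lay apart from microRNA genes. A cluster of 5 lay upstream of Fosb, an immediate early gene of the AP-1 family, and of Ercc1, a DNA repair gene, with its closest peaks 10.2 and 10.4 kb away. Its peaks of 1030 and 777 bp had scores of 39.5 and 63.8. On chromosome 5, 4 peaks of 334 to 1716 bp with scores from 8.38 to 50.6 stood about 108 kb above Med13l, a Mediator subunit gene, with Tbx3, a T-box factor gene, far on the other side. Single wide peaks lay 67.0 kb from Zfp217 (2733 bp, score 59.2), 20.5 kb from a tRNA gene and 62.4 kb from Commd3 (2454 bp, 60.8), and 24.6 kb from BC039771 and 32.2 kb from Slc24a3, a sodium, potassium and calcium exchanger gene (2167 bp, 119.5). Peaks at Creb3l1 (1741 bp, score 96.9), Cdk1 (1684 bp, 35.4) and Smad7 (1533 bp, 110.3) lay 34.5, 45.5 and 23.8 kb away. The peak of 1582 bp between the olfactory receptor genes Olfr725 and Olfr726, with a score of 104.0, was 1 of only 4 near olfactory or vomeronasal receptor genes. All 64 wide peaks had a score per 100 bp below the upper 1% of the list, a measure that falls with width by construction. Their median score was 53.1, against 153.3 for all peaks at least 1000 bp wide.

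Before Nos1, the gene of the sort, stood 8 narrow peaks within 4.34 kb, at chr5:117842263-117846599. RefSeq places Nos1 on the plus strand with its start at 117866839, so the cluster lay 20.2 to 24.3 kb upstream of the annotated start. The 8 peaks were 290, 219, 215, 213, 153, 205, 213 and 205 bp wide, with scores of 6.67, 9.67, 4.33, 5.29, 6.67, 4.67, 6.28 and 6.12. Each lay below the median score of far intergenic peaks. Neither end of the Nos1 model had a peak, and the nearest model of any kind was Gm30360, a noncoding gene 10.96 kb away. Of all protein-coding genes Nos1 was the nearest to 8 far intergenic peaks, behind Alkbh8 and Ppara with 13 each and Med13l with 9.

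Most far intergenic peaks stood alone. Joined at gaps of 10 kb or less, they formed 150 clusters with 382 members (31.8%, interval 29.2 to 34.5%) and 820 single peaks. There were 112 clusters of 2, 24 of 3 and 8 of 4. The 6 clusters of 5 or more held 54 peaks (4.49%). Joining all peaks of the list in the same way put 68.3% of them in clusters, and 14.2% in clusters of 5 or more. Another peak of any kind lay within 5 kb of 30.1% (interval 27.5 to 32.8%), against 62.6% of all peaks, and 32.4% had none within 50 kb, against 12.01%. The choice by position enters these contrasts and that of the clusters. A peak wholly inside a gene model cannot lie within 5 kb of a far intergenic one. A gene-end peak can only if it reaches far out from its model. Clustered and single peaks had like widths, with medians of 290 and 310.5 bp, and 5.76% and 5.12% of them were at least 1000 bp wide.

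Most genes beside far intergenic peaks had a peak at an end themselves. The 1202 peaks had 846 different nearest protein-coding genes, and 654 of these carried a peak within 1 kb of an end (77.3%, interval 74.3 to 80.1%), against 61.7% of all protein-coding genes and 56.4% of those with any far sequence nearest to them. Counted over peaks, 78.5% had such a neighbour, while 59.3% of far bases did. Where the strand of the neighbour was known, 524 of 935 peaks lay on its upstream side (56.0%, interval 52.8 to 59.3%), against 52.1% of far bases. That interval counts the peaks of a cluster separately. Peaks nearest to Alkbh8 (13), Ppara (13) and Nos1 (8), and the 5 between Fosb and Ercc1, all lay upstream. The 5 nearest to Bahcc1 and the 5 nearest to Klrb1c lay downstream. The share per cluster was not computed. The nearest model of any kind was a long noncoding RNA gene for 41.2% of peaks (27.5% of far bases), a protein-coding gene for 34.7% (28.4%), a pseudogene for 18.5% (35.2%) and a microRNA gene for 2.75% (0.631%). These shares of far bases include the 80.3 Mb of chromosome Y, which held 0 far intergenic peaks. Shares for the autosomes alone were not computed.

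Among lists of neighbours, developmental transcription factor genes were the nearest protein-coding genes of 68 peaks (5.66%, interval 4.42 to 7.12%) and of 3.50% of far bases (4.02% on the autosomes). These 68 peaks had 46 such genes as neighbours. Their median score was 10.05 and their median width 313 bp, close to the 11.8 and 303 bp of all far intergenic peaks. Of the 68, 1 was at least 1000 bp wide, against 5.32% of all far intergenic peaks. Keeping the better-scored 50% of the list left 171 far intergenic peaks and a share of 1.75%, and keeping the top 25% left 14 and a share of 0%. Both shares were below that of far bases, but they rest on few peaks and no interval was computed for them. Whether the share falls among better-scored peaks was not tested. Klf4, a factor of epithelial differentiation, was the nearest gene of 4 peaks, up to 1470 bp and a score of 109.5. Zeb2 had 4 (up to 458 bp), Foxo1 3 (up to 738 bp), Hand2 3 (up to 407 bp), Lmx1b 3 (up to 268 bp) and Sox13 2 (up to 988 bp). The enteric neuron regulators had 12 peaks (0.998%, interval 0.517 to 1.74%, against 0.687% of far bases), with a highest score of 19.2. Among them were those nearest to Zeb2 (63.9 to 1549 kb away), Hand2 (107 to 341 kb) and Tbx3 (2, at 268 and 424 kb). The nitrergic list had 10 (0.832%, interval 0.400 to 1.52%, against 0.276%), of which 8 were the Nos1 cluster. Of the others, 1 each was nearest to Etv1, at 58.4 kb, and to Adcyap1, a neuropeptide gene, at 130 kb. The interval counts the peaks of the Nos1 cluster separately. With each cluster or single peak counted once, the nitrergic list had 3 places (0.309%), near its 0.276% of far bases.

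Adhesion and guidance genes went the other way. They were nearest to 8.70% of far bases and to 27 peaks (2.25%, interval 1.49 to 3.25%). Of these, 3 were nearest to Lrrc4c, at over 1000 kb, and include the highest-scored peak of the whole list. Epha4, an ephrin receptor gene, had 3 (up to 334 bp) and Adgrl1, a latrophilin gene, 2 (up to 1279 bp, score 116.8). Olfactory and vomeronasal receptor genes had 4 peaks (0.333%, interval 0.0907 to 0.850%) for 1.35% of far bases. Other tandem gene families, predicted protein-coding genes included, had 53 (4.41%, interval 3.32 to 5.73%) for 14.6% of far bases. On the autosomes alone the shares were closer, 4.55% and 5.78%.

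Small lists of other cell types and of immediate early genes had few peaks. Glial genes had 4 (0.333%, interval 0.0907 to 0.850%, against 0.0692% of far bases). They were nearest to Sox2 (2, at 143 and 408 kb), Ngfr (22.7 kb) and Foxd3 (153 kb). Immediate early genes had 5, among them 2 nearest to Fosb (0.416%, interval 0.135 to 0.968%, against 0.127%). Interstitial and fibroblast genes had 6 (0.499%, interval 0.183 to 1.08%, against 0.139%). They were nearest to Dcn (3, at 165 to 166 kb, up to a score of 81.0), Pdgfra (118 kb), Kit (78.1 kb) and Etv1 (58.4 kb). In each of these 3 lists the interval began above the share of far bases over all chromosomes. For the immediate early genes it began below the share of autosomal far bases, 0.153%. The peaks of each list fell into 4 places, and the intervals count peaks of 1 place separately. Smooth muscle genes had 0 (interval up to 0.306%), for 0.0268% of far bases.

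**Figure D5:**
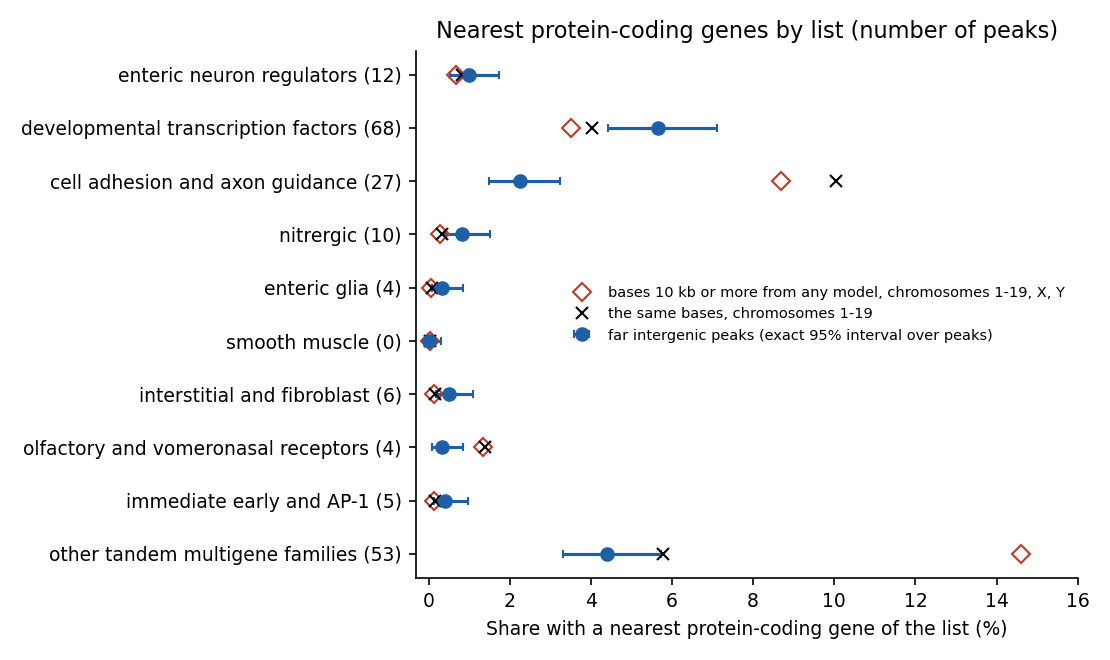
For each list of genes, blue points with exact 95% intervals give the share of far intergenic peaks whose nearest protein-coding gene is in the list, and open diamonds and crosses the share of far bases over all chromosomes and over the autosomes. The developmental factors lie to the right of their bases (5.66% against 3.50%) and the adhesion and guidance genes to the left (2.25% against 8.70%).

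Signs of mapping artefacts were strong at few places. The score per 100 bp of width was in the upper 1% of all peaks (above 25.7) for 13 far intergenic peaks. Their share (1.08%, interval 0.577 to 1.84%) was close to the background of 1%. Among intergenic peaks nearer to genes it was 0.408% (6 of 1471), with an overlapping interval of 0.150 to 0.886%. The 13 lay in 10 places and were 162 to 857 bp wide. The highest score of the entire list, 702.6, belonged to a peak of only 733 bp at chr2:98666575-98667307, with another of 184 bp and a score of 148.7 about 4 kb before it. Their scores per 100 bp, 95.9 and 80.8, were the highest of the list and, behind one gene-end peak at 81.9, the next. The nearest models, Gm33780 and the pseudogene Gm13806, were 35.3 and 60.8 kb or more away. The score that ranked 4 among all peaks, 415.0, lay in 857 bp at chr8:20122081-20122937, among pseudogenes (Gm20778 at 56.0 kb and Gm21811 at 13.3 kb). Without these 3 peaks, the highest score among far intergenic peaks was 213.3, at chr12:8640803-8641663 between Slc7a15 and Pum2.

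Chromosome ends held further examples. The cluster of 13 peaks at chr9:3000427-3025937 began at the lowest position of any peak or model on that chromosome. Its peaks were 153 to 272 bp wide, yet scored 12.1 to 54.0, with a median score per 100 bp of 19.5, against 3.83 for all far intergenic peaks. Mir101c was the nearest model, 12.7 kb above it. Peaks of 483 bp (score 200.3, chromosome 1) and 669 bp (score 204.4, chromosome 19) lay near the highest coordinates of their chromosomes, and one of 162 bp (score 58.6, chromosome 12) near the lowest. In all, 24 far intergenic peaks (2.0%, interval 1.28 to 2.96%) lay within 1 Mb of the lowest or highest coordinate of a chromosome, against 2.05% of all peaks and 1.37% of far bases. Among the 13 with high score per width, 5 did. A pair of 595 and 660 bp with scores of 201.8 and 209.8, 53 bp apart, lay between Klrb1 and Klrb1c, natural killer cell receptor genes of a tandem family, in a cluster of 5. A cluster of 4 on chromosome 14, 153 to 246 bp wide with scores from 18.1 to 36.5, lay beside the predicted pseudogene Gm9637.

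Proximity to predicted genes was not raised over all chromosomes, while the narrowest peaks were more frequent than in the whole list. A predicted gene (named Gm with digits, LOC or Rik) was the nearest model for 59.2% of far intergenic peaks and for 74.5% of far bases. Those bases include chromosome Y, and the share on the autosomes alone was not computed. The width of 153 bp, the smallest in the list, was held by 93 peaks (7.74%, interval 6.29 to 9.39%), against 4.55% of all peaks. Its share among other peaks away from gene ends was not computed. Peaks under 300 bp were about as frequent there, 45.6% of nearer intergenic peaks and 48.1% of those inside gene models, against 49.5%. Reads, duplicate rates, a list of problem regions and the input signal were not used here, so whether repeat reads made any of these peaks was not tested. Among the 14 far intergenic peaks scored above 140.8, 7 had the high score per width described above. A high score raises the score per width by construction, and the share among all peaks scored above 140.8 was not computed.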

How the data were processed

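Per the file headers and the submitters' processing notes, the deposited peak list came from MACS2 on a paired-end library, with the input named in the file's name, and BWA, Picard and mm10 are also named, without roles or versions. The score deposited by the authors has no stated scale and was compared only between peaks of the list. Calling threshold, duplicate handling and depth: not given in the sources used here. Positions are 1-based. Gene models came from a RefSeq table of GRCm38.p6 (the chromosomes of mm10). From it, 340 models that end below 3 Mb on chromosomes other than Y, where 0 peaks lie, were left out, because scaffold models carry scaffold coordinates. The remaining 49603 models include 21779 protein-coding genes. Strands came from RefSeq promoter and microRNA tables, for 17492 protein-coding genes. Distance counts the bases between peak and model. A peak at a gene end touches the 1 kb to either side of an end. Shares of far bases were counted exactly, with no random draws, in Python 3.11.15 (pandas 2.3.3, scipy 1.17.1). They cover all chromosomes, X and Y included, unless the autosomes are named. Intervals are exact Clopper-Pearson at 95%. The distance code was tested on simulated peaks. The regions named are the 15 widest, the 10 with the highest scores, the 10 with the highest score per 100 bp, the 5 largest clusters (6 with ties), the 5 farthest, and 3 on each side of the limit. Neighbour genes are named by number of peaks, up to 8 per list. Clusters of 4, the microRNA neighbours outside this rule and single genes picked from lists were chosen after their values were seen. The members and lists were chosen with earlier results of these data known. Some regions and genes that the rule picks are not reported here.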

Additional observations from a re-analysis of the deposited data

How the results depend on the processing

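The list comes from 1 library of unknown depth, so how many weak peaks were missed was not tested. No paired analysis was possible because the study has 1 library of each kind. The number of peaks (1202) was 619 at 20 kb, 178 at 50 kb, 3067 with protein-coding models only, 2943 without predicted genes, 171 and 14 in the 50% and 25% with the highest scores, and 607 with peaks at least 300 bp wide. In the same order, the median width (303 bp) had 289 bp, 262 bp, 349 bp, 348 bp, 677 bp, 859 bp and 530 bp, with 351.5 bp when peaks closer than 1 kb were merged and 334 bp for the widest of each cluster. The median score (11.8) was 10.8 at 20 kb, 9.48 at 50 kb, 55.4 and 201.0 in the better-scored sets and 20.2 at 300 bp. The share in clusters (31.8%) was 27.1% at 20 kb, 20.8% at 50 kb, 40.9% and 38.0% with the reduced gene sets, 22.2% and 28.6% in the better-scored sets, 19.4% at 300 bp, 10.3% with merging and 39.1% with gaps of 50 kb. The share beside developmental factors (5.66%) was 7.43% at 20 kb and 8.99% at 50 kb, against 3.46% and 3.03% of far bases. It was 1.75% and 0% in the better-scored sets of 171 and 14 peaks, against 3.50% of far bases, with no interval computed for these small sets. The share with high score per width (1.08%) was 0.562% at 50 kb, 7.60% and 50% in the better-scored sets. Stricter sets hold fewer, and score and width limits higher-scored and wider, peaks by construction. All 13 peaks with a high score per width scored 42.6 or more, so the better-scored 50%, above 35.7, keeps every one by construction. A wider gap can only raise the share in clusters, and merging joins close peaks of a cluster into 1. The cause of the other shifts was not tested. At 5 kb, without chromosomes X and Y, and without the clusters of 5 or more (added after seeing the data), each value computed stayed inside its interval, or within 1.5 times for the number.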

Other observations

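Several neighbours outside the lists, chosen after their values were seen, had repeated far intergenic peaks. Vrk1, a kinase gene, was the nearest protein-coding gene of 7 (up to 640 bp and a score of 123.2), and Bahcc1 of 5 in a single cluster (196 to 618 bp, scores 37.1 to 72.1) 12.7 kb from its model. Cd83 had 5 (up to 299 bp), Lrig2 5 (up to 481 bp), Map3k7 5 (up to 693 bp) and Ubash3b 5 (up to 1099 bp, score 70.8). Lef1, a Wnt pathway transcription factor gene, had 4, up to 787 bp and a score of 18.6.

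Scores in the list take repeated values: 96.3% of far intergenic peaks and 94.3% of all peaks share their exact score with another peak.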
